A study of Homo sapiens with 12 samples.

Results

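Arrays of quinacrine-treated H1975 cells taken late were compared with those taken early. H1975 is an established human lung adenocarcinoma line, and every array came from it, so all groups share its EGFR genotype, L858R with T790M, and culture in DMEM with 5% fetal bovine serum. The members were the 7 of 12 arrays on which the cells had received quinacrine. The 3 late ones were quinacrine 3 µM alone at 24 h and quinacrine 3 µM with erlotinib 1 µM at 24 and 48 h. The design text also names 5 µM quinacrine, but the labels of these 7 arrays give 3 µM. The 4 early ones were quinacrine alone at 6 and 12 h and the combination at 6 and 12 h. The erlotinib series (1 µM at 6, 12, 24 and 48 h) was set beside them for the change with time without quinacrine, and 1 untreated array, whose label gives no time, for the starting level. Each condition was measured once at each time, so n counts arrays at different times and not replicates, and the labels do not say whether they were separate cultures. The p-values below therefore measure the spread between these arrays, which includes real change from 6 to 12 h and from 24 to 48 h. The groups with quinacrine also pool quinacrine alone and the combination, so the spread includes any effect of the added erlotinib.

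Quinacrine is an acridine antimalarial that intercalates into DNA, and the study's title links it to the histone chaperone FACT and to NF-kappaB. Erlotinib inhibits the EGFR kinase, and T790M is a known resistance mutation to it. Type I and type III interferons act through receptors, the kinases JAK1 and TYK2 and transcription factors that include IRF9, which bind the interferon-stimulated response element and turn on a large set of antiviral genes. Cytosolic sensors of nucleic acid such as RIG-I and MDA5 stand upstream of interferon and are themselves among its targets.

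The arrays carried part of the epithelial genes of such a line: of 15 lung adenocarcinoma markers, 7 averaged 5 or more. CDH1 averaged 10.31, EPCAM 8.54, KRT19 8.29 and EGFR 8.28 on the log2 intensity scale over the 12 arrays. The surfactant genes SFTPB, SFTPC and SFTPD were at 1.65 to 1.76. KRT8 (2.81), NAPSA (2.87), CLDN4 (3.86), ELF3 (4.65) and KRT18 (4.71) were also under 5. Of 19 leukocyte markers, 16 averaged under 5, with PTPRC at 0.89 and CD3E at 1.31; CD79A (7.47), CD68 (8.57) and CSF1R (6.44) did not. On a linear scale the 19 summed to between 630 and 747 on the early arrays with quinacrine and to between 555 and 706 on the late ones. One feature of the arrays themselves moved with the comparison. The interquartile range of log2 intensity over all rows of an array was 2.04 to 2.72 on the early arrays with quinacrine and 2.81 to 2.88 on the late ones, and the number of rows at 5 or more was 7470 to 8973 and 9065 to 9169. The combination 6 h array was lowest on both. The part of this spread in the results was not tested directly; results with it as a term, and without the combination 6 h array, are given beside them.

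Late and early arrays with quinacrine differed at 198 of 5820 genes. Of these, 119 were higher late (2.04% of genes tested) and 79 were lower late (1.36%), by limma with Benjamini-Hochberg adjustment over all 5820 genes at 0.05. The rises reached further than the falls: 34 of the 119 rose at least 2-fold, against 2 of the 79 that fell, SLC7A11 and EDF1. The median change over all genes tested was -0.04, with quartiles of -0.19 and 0.14. In each of the 198 genes both arms, quinacrine alone and the combination, had the same sign, and no late array overlapped with an early one. Among all genes, 581 (9.98%) had every late array above every early one and 860 (14.8%) had every late array below. At an unadjusted p under 0.05 in limma, 1455 of the 5820 genes passed in either direction. The unadjusted counts of gene lists below are to be read beside that number.

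Scaling set how many falls were called. Values were centred on each array's median over the genes tested; without centring the calls were 117 up and 18 down, and with centring on the median of all rows 81 up and 2 down, while the median change of all genes moved from -0.04 to 0.12 and 0.22. With cyclic loess the calls were 141 up and 68 down. Of genes named below, HMGCS1, NES, LINC00997, TXNRD1, ODC1, SAT1, SAT2, MKI67, ANLN, GTSE1, GINS2 and H2BC3 lost their call without centring. All of these also lost it with centring on the median of all rows. So did UAP1, PTPRS, TGFB2, NT5DC2, EN2, NCEH1, H2BC12, GDF15, TAP1 and STC2. HMGCS1, MKI67, ANLN, GTSE1 and GINS2 lost it with loess too. With the interquartile range as a term 19 genes passed (17 up, 2 down). Against combination 12 h alone, the early array whose spread was nearest to the late arrays, 13 passed (10 up, 3 down). With combination 48 h left out 40 passed, and leaving out quinacrine 6 h, quinacrine 24 h or combination 24 h gave 57, 63 and 72. Dropping combination 6 h gave 171 (108 up, 63 down).

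The 119 genes that rose started on either side of the untreated array: the early mean of GDF15 lay 2.12 above it and that of ANGPTL4 -0.81 from it. The median level of the 119 minus the untreated array was -0.22 at 6 h of quinacrine and -0.20 at 6 h of the combination, 0.10 and 0.02 at 12 h, and 0.70 and 0.63 at 24 h. It was 0.87 at 48 h of the combination. Late means were farther from the untreated array than early means for 82 of the 119, and nearer for 37. The late mean was above the untreated array for 103 of the 119. Some of those 37 had therefore passed the untreated level and ended above it, as ANGPTL4 did (0.20 late). Of the 79 that fell, 46 ended farther from the untreated array and 31 nearer to it.

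Interferon-stimulated genes made up the largest listed group of rises. Of 33 members tested, 28 rose (84.8%, against 2.04% of all genes) and none fell, also at an unadjusted p under 0.05; the median change of the 33 was 1.33, or 1.46 with quinacrine alone and 1.38 with the combination. In 30 of the 33 every late array lay above every early one, against 9.98% of all genes tested. The list held 22 of the 34 genes that rose at least 2-fold. The 5 that did not pass were IFIT3 (1.52, adjusted p = 0.0579), IFITM3 (0.30), APOL6 (0.15), LGALS3BP (0.09) and IFITM2 (-0.13).

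The filter on a mean of at least 5 can favour genes that are high late, so the list was also counted without it. Of the 56 members on the array, 38 (67.9%, against 0.406% of all) rose in a fit of all 22395 named genes, and 49 (87.5%, against 5.80%) had every late array above every early one. With genes chosen by a level of at least 5 on the untreated array, which enters no fit, 18 of 22 members rose. Of all 5837 genes so chosen, 103 rose. With the interquartile range as a term 14 of the 33 passed (median change 1.07), and against combination 12 h alone 9 did. On the combination arrays alone, 13 passed.

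The member that changed most among those tested was OAS2, a 2'-5'-oligoadenylate synthetase that activates the antiviral ribonuclease RNase L. Its level was 3.90 (6 h) and 4.82 (12 h) with quinacrine alone and 4.77 and 5.20 with both drugs. It was 7.76 at 24 h with quinacrine alone, and 7.41 (24 h) and 8.31 (48 h) with both drugs, against 4.50 without treatment. Late arrays thus stood apart from all early ones and from the untreated array, a rise of 3.15 ± 0.35 (SE, 8.90-fold, adjusted p = 0.000427). OAS3, of the same family, was between 7.05 and 7.26 on the early arrays and at 8.74, 8.47 and 8.94 on the late ones, in the same order. Its early arrays lay just under the untreated level of 7.46, and it rose by 1.56 ± 0.12 (SE, adjusted p = 4.56e-05).

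XAF1, an interferon-induced partner of the apoptosis inhibitor XIAP, was 5.45 and 6.20 early with quinacrine alone (6, then 12 h) and 4.36 and 6.19 with both drugs. On the late arrays it was 8.53, 8.23 and 8.72, against 5.54 without treatment. Both 12 h arrays stood above the 6 h arrays, and the late ones above both (2.94 ± 0.37, SE, adjusted p = 0.00126). IFI44L, a classical interferon marker, showed no such step at 12 h. Its 4 early arrays lay between 4.31 and 4.53, against 4.20 untreated, and its late arrays at 7.04, 6.74 and 7.19 (2.53 ± 0.16, SE, adjusted p = 1.42e-05).

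**Figure D1:**
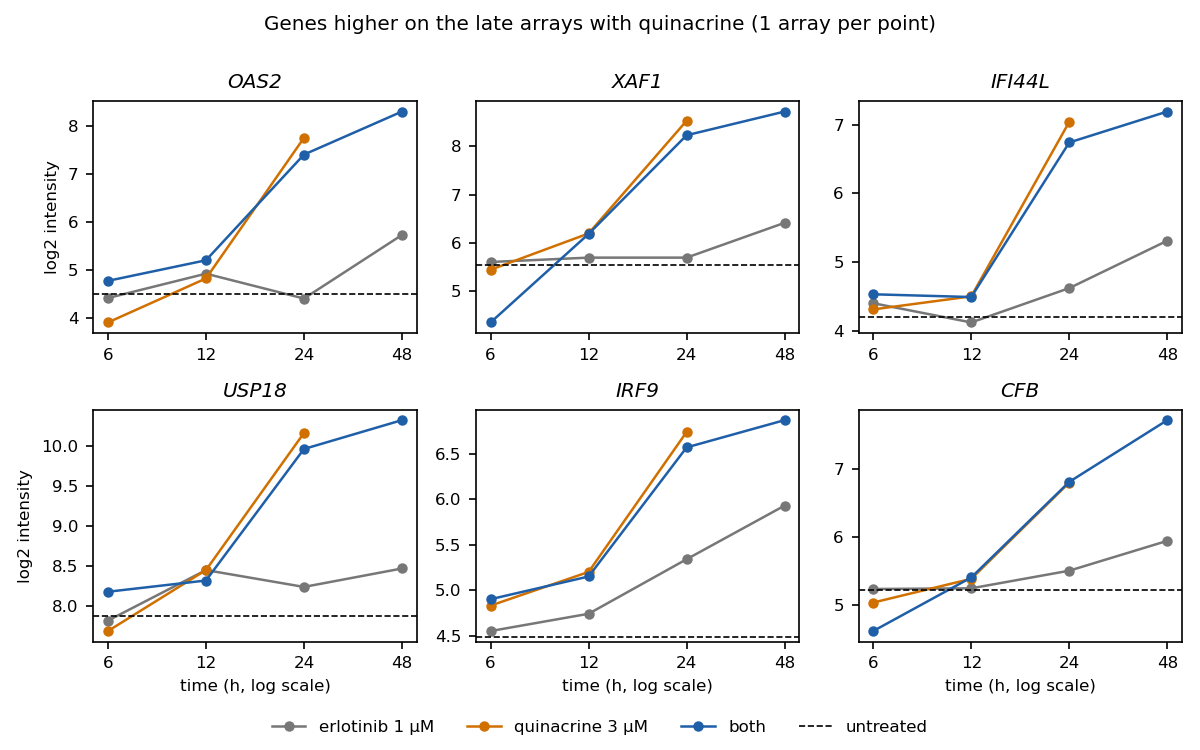
Log2 intensity (vertical axis, median-centred) of 6 genes against hours of treatment (log axis), 1 array per point, with erlotinib in grey, quinacrine in orange, the combination in blue and the untreated array as a dashed line. The quinacrine and combination points at 24 and 48 h stand above those at 6 and 12 h in every panel, for example IFI44L at 6.74 to 7.19 against 4.31 to 4.53.

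A transcription factor and a feedback regulator of the pathway, IRF9 and USP18, also rose. IRF9, a DNA-binding transcription factor of the pathway, was 4.83 and 5.20 early with quinacrine alone, 4.90 and 5.15 early with both drugs, and 6.74, 6.57 and 6.87 late (1.71 ± 0.15, SE, adjusted p = 0.000103). The early arrays were already above the untreated 4.48. USP18, which removes ISG15 from proteins and dampens receptor signalling, lay between 7.69 and 8.45 early and at 10.16, 9.96 and 10.32 late, against 7.88 untreated (1.99 ± 0.19, SE, adjusted p = 0.000228). With erlotinib alone IRF9 was 4.55 and 4.74 at 6 and 12 h and 5.34 and 5.93 at 24 and 48 h. That change of 0.99 missed the threshold (adjusted p = 0.069, limma), and USP18 changed by 0.22 with erlotinib.

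Of the sensors, RIGI was 7.33 to 7.81 early and 8.68 to 8.99 late, a rise of 1.23 ± 0.13 (SE, adjusted p = 0.000392). IFIH1, which encodes MDA5, rose by 1.36 ± 0.26 (SE, adjusted p = 0.021), with combination 6 h lowest at 4.18. EIF2AK2, the double-stranded RNA kinase PKR, rose by 0.99 ± 0.13 (SE, adjusted p = 0.00191). None of the 3 had a late array within the range of its early ones.

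Other effectors moved as far. HERC6, of a ubiquitin ligase family that includes the ISG15 ligase, was 5.92 to 6.71 early and 8.21, 8.16 and 8.52 late (1.82, adjusted p = 0.000392). SAMD9, a restriction factor of poxviruses, was 6.01 to 6.81 early and 8.30, 8.04 and 8.43 late (1.73, adjusted p = 0.000361). Both had early levels around or under their untreated 6.46 and 6.74. The mono-ADP-ribosyltransferase family member PARP9 was 4.87 to 5.11 early and 6.40, 6.26 and 6.20 late (1.28, adjusted p = 4.57e-05). IFITM1, a membrane protein that blocks viral entry, was 5.75 to 6.57 early and 7.92, 7.66 and 8.42 late (1.76, adjusted p = 0.00413). The helicase DDX60 rose by 1.73, IFI44 by 1.61 and IFIT1, which binds foreign RNA caps, by 1.58. Those 3 differed from OAS2 in one respect: combination 48 h was their lowest late array, at 6.86, 6.31 and 6.07. Over all 56 members, combination 48 h was above combination 24 h in 42 and below it in 14.

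Well-known members fell under the filter because their level was low before treatment. MX1, an antiviral GTPase, was 3.47, 4.21, 3.54 and 3.56 at quinacrine 6 and 12 h and combination 6 and 12 h, and 6.45, 6.15 and 6.33 late. SAMD9L, the paralog of SAMD9, was 2.66, 3.63, 2.51 and 3.72 and then 6.88, 6.45 and 7.15. RSAD2, which encodes viperin, was 2.95, 3.33, 2.61 and 3.71 and then 6.03, 5.56 and 5.84. The late and early arrays of these 3 were separated by over 1.5 log2 units, and each passed in the fit without a filter (adjusted p = 0.000218, 0.000335 and 0.000532, limma over 22395 genes). ISG15, the ubiquitin-like modifier, was 4.07 to 4.51 early and 5.43 to 6.23 late. TRIM22 (1.33, 1.60, 1.69 and 1.15 early, 1.26, 1.32 and 1.40 late) stayed at the array's low end at all times. Several members have close paralogs on the array (OAS, IFIT, SAMD9, DDX60 and IFI44 genes), and shared signal between them was not tested.

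The group was low at 6 h on every array. No member of the 56 was at least 1 log2 unit above the untreated array at 6 h of quinacrine or of the combination, 5 were at 12 h of each, and 40, 37 and 42 were on the late arrays. The median of the 56 minus the untreated array went from -0.03 and 0.02 at 6 h through 0.35 and 0.27 at 12 h to 1.46, 1.34 and 1.65 late. With erlotinib it was 0.18 at 24 h and 0.36 at 48 h, with 9 members at least 1 unit up at 48 h.

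**Figure D2:**
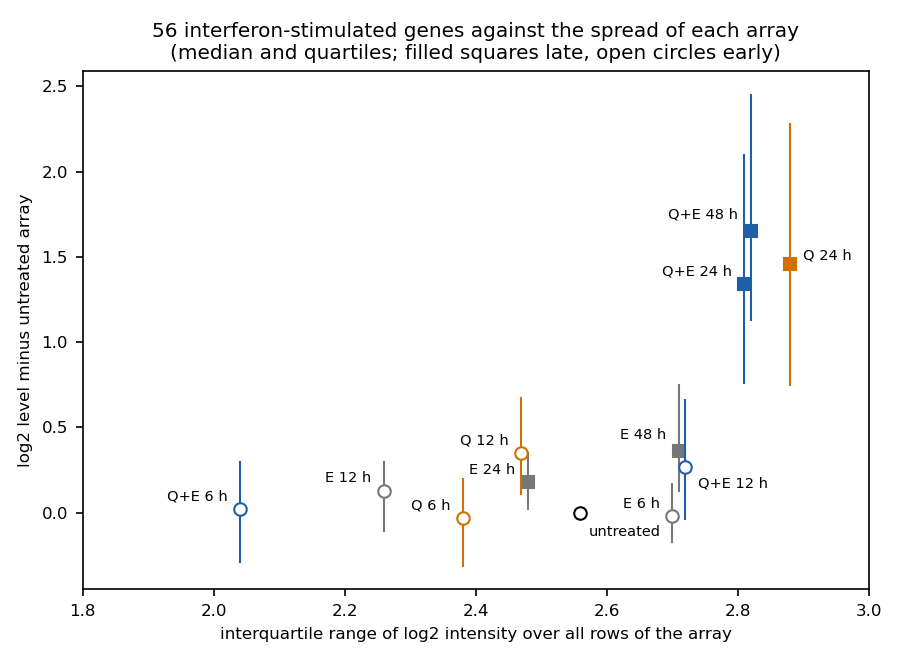
Median (points) and quartiles (bars) over 56 interferon-stimulated genes of the log2 level minus the untreated array, against the interquartile range of log2 intensity over all rows of each array; Q is quinacrine, E erlotinib, Q+E both. The 3 late arrays with quinacrine have medians of 1.34 to 1.65 at a spread of 2.81 to 2.88, and the arrays of nearest spread, combination 12 h (2.72), erlotinib 48 h (2.71) and erlotinib 6 h (2.70), have medians of 0.27, 0.36 and -0.02.

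Promoters of these genes were searched for the core of the interferon-stimulated response element, GAAANNGAA on either strand, because the members rose together. The window was 250 bases before to 50 after the start in RefSeq, build GRCh38.p14, 1 promoter per gene. Of 44 members with a promoter, 30 held it (68.2%), against 8.29% of all 27305 promoters, 8 of 72 other genes that rose (11.1%) and 5 of 64 that fell (7.81%). Among members tested, 18 of 24 that passed and 3 of 3 that did not pass held it. A match is a run of letters and not a measured site. The list was made of known interferon targets, so the share is a property of the list. The match nearest to the start is shown with 10 bases on either side for 7 members that rose, in capitals, read along the strand that carries the motif.
IFI44L, chr1:78620365-78620393 (+): tcctagtgagGAAAAAGAAagttagtggc
IFI44, chr1:78649762-78649790 (-): tcagagaaagGAAACTGAAactcagtgtg
DDX60, chr4:168318787-168318815 (-): gaggagaaagGAAACCGAAactcccgccg
SAMD9, chr7:93118097-93118125 (-): tctgagaaatGAAACTGAAaccaaaccta
IFIT1, chr10:89392511-89392539 (-): gaaacctaggGAAACCGAAaggggaaagt
IFITM1, chr11:314024-314052 (+): acacttctgaGAAACTGAAacgacagggg
OAS3, chr12:112938452-112938480 (+): agccgggcggGAAAACGAAaccagaaatc
IFI44L carries the same 29 letters at 2 places of its window, the other at chr1:78620274-78620302.

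Outside the interferon list, 91 genes rose, by a median of 0.67, and 12 of them at least 2-fold. CFB, complement factor B of the alternative pathway, led them: it was 5.03 and 5.38 early with quinacrine alone, 4.61 and 5.40 early with both drugs, and 6.80, 6.81 and 7.72 late, against 5.22 untreated (2.01 ± 0.24, SE, adjusted p = 0.000918). The late arrays all lay over 1 unit above the early ones. CTSS, the lysosomal protease cathepsin S, was 6.12 to 6.99 early and 7.65, 7.71 and 8.43 late (1.36, adjusted p = 0.021). Of 38 lysosomal genes tested it was the 1 that passed (2.63%, against 2.04% of all genes), with 7 higher and 4 lower at an unadjusted p under 0.05. MUC1, an epithelial mucin, was 5.72 to 6.62 early and 7.42, 7.15 and 7.65 late (1.14, adjusted p = 0.0105). Combination 48 h was the highest array of all 3 genes.

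Known interferon targets that the list had left out were looked up after the values had been seen. SAMHD1, which hydrolyses deoxynucleotides, was 6.42 to 6.75 early and 8.10, 7.72 and 8.16 late (1.41, adjusted p = 0.000103, limma). HCP5 rose by 1.32, IFI16 by 0.82, LAP3 by 0.80, UNC93B1 by 0.77 and ADAR by 0.36. Not all genes in this lookup passed: IRF1 changed by 0.36 (adjusted p = 0.0972, limma) and SOCS3 by 0.40 (adjusted p = 0.336, limma). SOCS1 (0.86), ZBP1 (-0.40) and TREX1 (-0.16) lay under the filter and did not pass without it. Among genes of the upstream pathway the receptors did not pass: IFNAR1 changed by 0.20 and IFNGR2 by -0.26. JAK1 (0.05), TYK2 (-0.06) and STAT3 (0.06) did not either. IFNB1 was at 0.65 to 1.90 on all arrays with quinacrine, at the low end of the scale. IFNL1, a type III interferon, was under the filter at 2.17 and 2.68 early with quinacrine alone, 1.70 and 2.06 early with both drugs, and 4.42, 3.29 and 4.35 late. The late arrays were above all early ones and above the erlotinib arrays (1.34 to 1.85), with a change of 1.87 (adjusted p = 0.0122, limma without the filter).

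Among NF-kappaB targets above the filter 1 gene passed. NFKBIA, which encodes the inhibitor that NF-kappaB itself induces, was 8.65 to 8.81 early and 9.38, 9.42 and 9.81 late (0.80 ± 0.12, SE, adjusted p = 0.00594). Of 20 targets tested, 1 rose (5.00%, against 2.04%), none fell (9 and 0 at an unadjusted p under 0.05), 18 had a positive change and the median was 0.21. Without the filter, 3 of 39 targets rose (7.69%, against 0.406% of 22395 genes) and none fell. Beside NFKBIA these were CCL5, a chemokine that interferon pathways also induce, at 4.01 to 5.46 early and 7.27, 7.02 and 6.91 late (2.30, adjusted p = 0.0163, limma without the filter), and NFKBIZ (1.18, adjusted p = 0.0111). ICAM1, an adhesion molecule, was 8.90, 8.35, 8.80 and 8.25 early and 8.60, 8.43 and 8.70 late, all above the untreated 7.64, with a change of 0.00. The subunit genes NFKB1 (0.04) and RELA (-0.18) did not pass. Among 17 antigen presentation genes only the peptide transporter TAP1 passed (0.49, adjusted p = 0.0241), or 5.88% against 2.04%, with 15 of 17 positive and 9 higher at an unadjusted p under 0.05. The FACT subunit genes SUPT16H (-0.05, adjusted p = 0.774) and SSRP1 (-0.25, adjusted p = 0.142) did not pass, nor did any of 21 genes of the FACT and elongation list in limma (2 higher and 6 lower at an unadjusted p under 0.05).

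Several single genes of other lists rose. GDF15, a stress-induced cytokine, was 6.96 to 7.21 early and 7.88 to 7.93 late (0.78, adjusted p = 0.0374), but the untreated array was at 5.00, so most of its height was present at 6 h. VEGFA, the angiogenic factor, rose by 0.52 and the secreted glycoprotein STC2 by 0.42. Of 33 amino acid response genes, 3 rose (9.09%, against 2.04%) and 2 fell (6.06%, against 1.36%). Of 14 p53 targets 2 rose (14.3%), and of 22 hypoxia and glycolysis genes 2 rose (9.09%). These counts share genes: GDF15 is in the amino acid response and p53 lists, and VEGFA in the amino acid response and hypoxia lists. At an unadjusted p under 0.05, 7 amino acid response genes were higher and 5 lower, and each of the other lists had 4 higher and 2 lower. ANGPTL4, an inhibitor of lipoprotein lipase, rose by 1.01. PMAIP1, which encodes the pro-apoptotic NOXA, was 7.68 to 8.01 early and 8.28 to 8.35 late (0.47, adjusted p = 0.048). CCND1, cyclin D1, rose by 0.57 (adjusted p = 0.043) from 7.27 to 7.44 early to 7.72, 7.73 and 8.27 late. Of these, GDF15, STC2, PMAIP1 and CCND1 each lost the call under more than 15 alternatives. EGFR was 8.05 to 8.18 early and 8.36 to 8.47 late, a change of 0.28 that missed the threshold (adjusted p = 0.0839). MYC changed by 0.04.

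The largest fall was in SLC7A11, the cystine-glutamate antiporter that supplies cysteine for glutathione. It was 7.55 (6 h) and 6.56 (12 h) with quinacrine alone, 7.64 and 6.61 with both drugs, and 5.45, 5.23 and 5.20 late, against 7.77 untreated. The level stepped down at 12 h in both arms and again late, a fall of -1.80 ± 0.25 (SE, 3.47-fold, adjusted p = 0.00308). With erlotinib alone SLC7A11 changed by -0.64 and did not pass. TXNRD1, thioredoxin reductase, fell by 0.53 (adjusted p = 0.027), and these were the 2 of 27 NRF2 and redox genes to pass (7.41% lower, against 1.36% of all genes; 8 lower and 2 higher at an unadjusted p under 0.05). EDF1, a transcriptional coactivator that also binds collided ribosomes, was 9.13, 8.85, 9.34 and 8.72 at quinacrine 6 and 12 h and combination 6 and 12 h, and 7.62, 7.69 and 7.75 late. Both 12 h arrays were again below both 6 h arrays, and the untreated array was at 9.57 (-1.32 ± 0.14, SE, adjusted p = 0.000361).

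**Figure D3:**
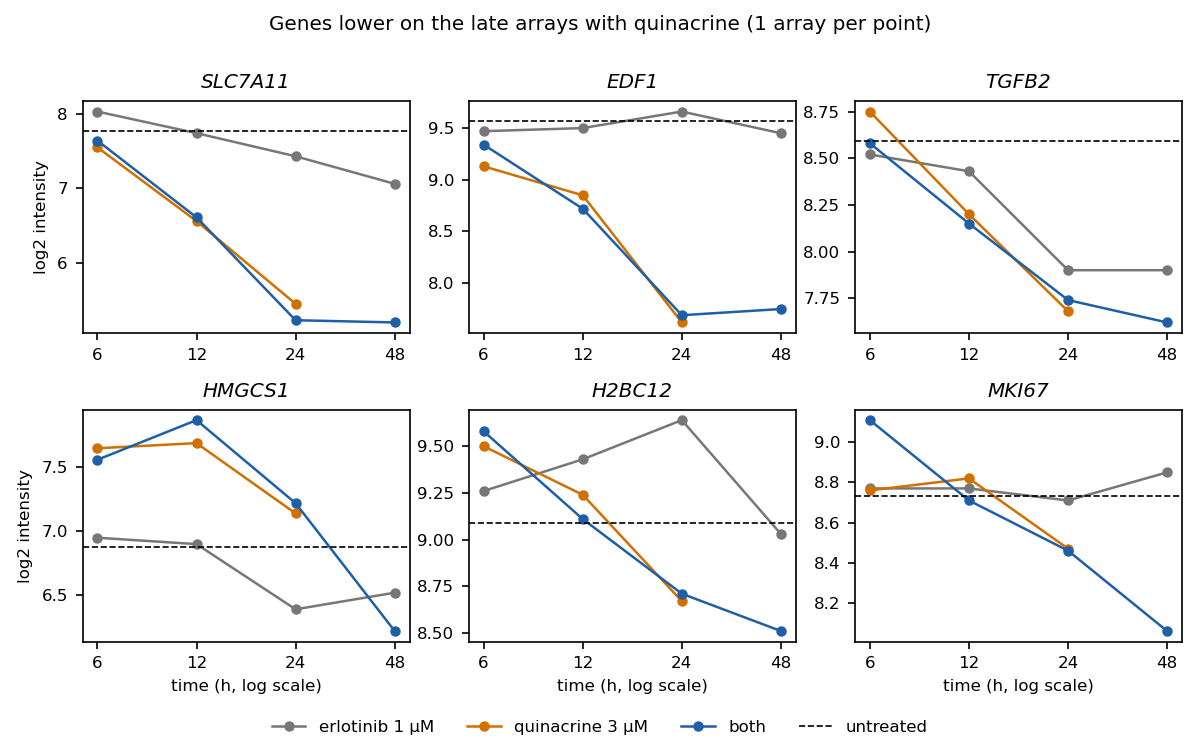
Log2 intensity (vertical axis, median-centred) of 6 genes that fell, against hours of treatment (log axis), 1 array per point, in the same colours as for the risers. Late quinacrine and combination points lie below the early ones in each panel, SLC7A11 at 5.20 to 5.45 against 6.56 to 7.64, while HMGCS1 at 24 h (7.14 and 7.22) is still above its untreated 6.88.

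The other falls were under 2-fold. TGFB2, a growth factor of the mesenchymal and YAP target lists, was 8.15 to 8.75 early and 7.62 to 7.74 late (-0.74, adjusted p = 0.018). NCEH1, a cholesterol ester hydrolase, fell by 0.79, UAP1, an enzyme of UDP-N-acetylglucosamine synthesis, by 0.73, and the receptor phosphatase PTPRS by 0.74. NES, which encodes the intermediate filament nestin, fell by 0.91 and the homeobox gene EN2 by 0.77. EN2 had been raised early, at 5.93 to 6.21 against 4.86 untreated, and late it was at 5.19 to 5.36. NT5DC2 fell by 0.76 and the long non-coding RNA LINC00997 by 0.85. Some of these genes fell about as far with erlotinib alone. NCEH1 and UAP1 each changed by -0.77 there and TGFB2 by -0.58, none past the threshold. PTPRS (0.10), NES (0.10), EN2 (0.18), NT5DC2 (0.02) and LINC00997 (0.68) did not fall with erlotinib.

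HMGCS1, an early enzyme of cholesterol synthesis, went from 7.56 to 7.87 early to 7.14, 7.22 and 6.22 late (-0.83, adjusted p = 0.0444). Combination 48 h was the only late array under the untreated 6.88. It was the only one of 22 cholesterol synthesis genes to pass (4.55%, against 1.36%; 8 lower and 1 higher at an unadjusted p under 0.05), and 5 of the 22 had a positive change, with a list median of -0.20 with quinacrine and 0.26 with erlotinib. Of 14 polyamine genes, SAT1 (0.64) and SAT2 (1.00), named as spermidine/spermine acetyltransferases, rose (14.3%, against 2.04% of all genes) and 1 fell (7.14%, against 1.36%). That 1, ODC1, the first enzyme of polyamine synthesis, went from 9.38 to 9.74 early to 8.94, 8.94 and 8.81 late (-0.63, adjusted p = 0.0365). The other 11 did not pass, with 3 higher and 4 lower of the 14 at an unadjusted p under 0.05. The 3 calls were lost under 19 of 31, 14 of 30 and 18 of 31 alternatives for SAT1, SAT2 and ODC1. With erlotinib alone SAT1 changed by 0.52, SAT2 by 0.54 and ODC1 by -0.77, and none of them passed.

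Of 55 G2/M genes, 3 fell (5.45%, against 1.36%; 20 lower and 3 higher at an unadjusted p under 0.05) and 11 had a positive change, with a median of -0.22. MKI67, the proliferation marker Ki-67, was 8.71 to 9.11 early and 8.47, 8.46 and 8.06 late (-0.52, adjusted p = 0.0494), ANLN, an actin-binding protein of cytokinesis, fell by 0.56, and GTSE1 by 0.61. Both 24 h arrays of MKI67 were below all early ones, and combination 48 h was lower still. Of 56 G1/S and replication genes, the replication factor GINS2 fell (-0.59, adjusted p = 0.0386), or 1.79% against 1.36%, CCND1 rose, and the median was -0.18, with 15 lower and 3 higher at an unadjusted p under 0.05. CDK1 did not pass (-0.30, adjusted p = 0.159). The H2B genes H2BC12 (-0.73, adjusted p = 0.031) and H2BC3 (-0.85, adjusted p = 0.0292) were the 2 of 14 histone genes to pass (14.3%, against 1.36%; 7 lower and 1 higher at an unadjusted p under 0.05), and H2AX changed by -0.03. MKI67, ANLN, GTSE1 and GINS2 also lost their calls with loess. No gene passed in limma among 20 ER chaperones (9 lower at an unadjusted p under 0.05), 12 heat shock genes (3 lower) or 23 autophagy genes (6 higher and 3 lower).

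The erlotinib series showed how far such genes moved with time without quinacrine. Late minus early with erlotinib, 13 of 5820 genes passed (0.223%), 6 up and 7 down, from 2 arrays against 2. That count was 20 without erlotinib 6 h, 3 without erlotinib 12 h or 48 h, 52 without erlotinib 24 h, 45 when combination 6 h was dropped and 8 when combination 24 h was, the last 2 through the shared estimate of spread. The largest were DHRS3, a retinal reductase, at 2.42 (adjusted p = 0.00312) and GLIPR1 at -2.13 (adjusted p = 0.000722). Of the 119 genes that rose with quinacrine, 88 had a positive change with erlotinib, but their median was 0.22 against 0.77. Of the 119, 2 passed with erlotinib in the same direction: DHRS3 (1.21 with quinacrine) and GDF15 (2.05 with erlotinib). Of the 79 that fell, 56 had a negative change with erlotinib and none passed there, with medians of -0.10 and -0.57. Across all genes tested, 58.7% had the same sign and the changes had a Pearson r of 0.25 over 5820 genes, which share arrays and are not independent. The 33 interferon genes had a median of 0.33 with erlotinib, 25 were positive and none passed in limma (11 rose at an unadjusted p under 0.05). Of all 5820 genes, 713 were under that unadjusted p with erlotinib, in either direction.

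**Figure D4:**
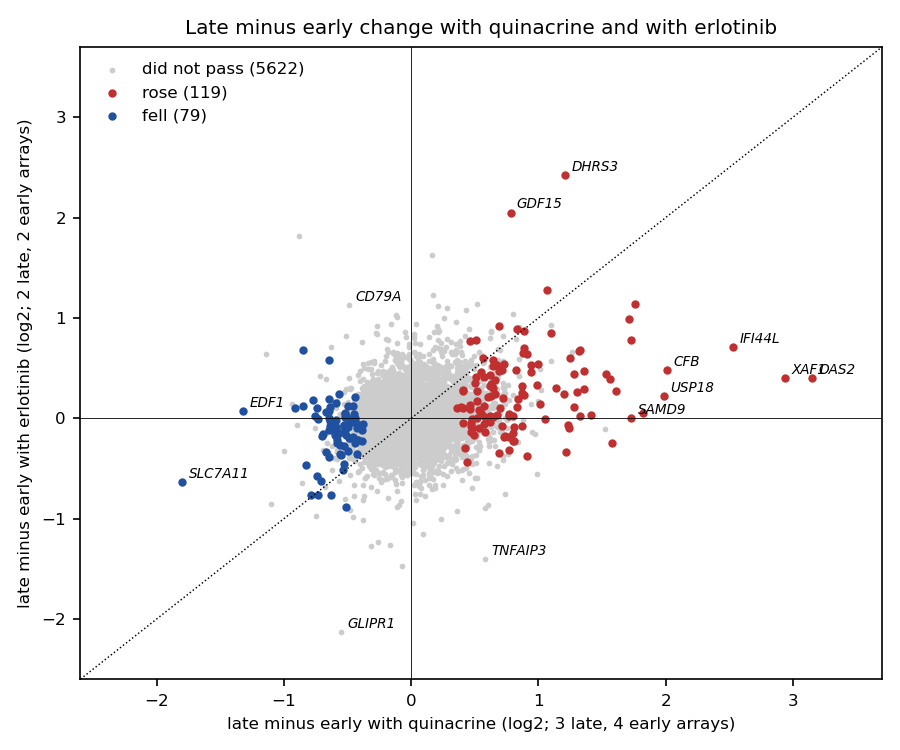
Late minus early log2 change with quinacrine (horizontal axis, 3 late and 4 early arrays) against that with erlotinib (vertical axis, 2 and 2 arrays) for 5820 genes, with the 119 that rose and 79 that fell with quinacrine in red and blue and the diagonal dotted. The red points reach 3.15 to the right (OAS2) where erlotinib changed by 0.40, and DHRS3 and GDF15 stand above the diagonal at 2.42 and 2.05.

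The difference between the 2 changes passed at 17 genes (0.292%), 14 higher with quinacrine and 3 lower. The interferon list held 8 of them: IFI44L (1.83 ± 0.27, SE, adjusted p = 0.0359), USP18 (1.77), HERC6 (1.77), SAMD9 (1.73), DDX60L, RIGI, OAS3 (1.17) and IFIT5. Of the other 9, SAMHD1 rose with quinacrine (1.41) and changed by 0.03 with erlotinib, and EDF1 fell with quinacrine and changed by 0.07 with erlotinib (difference -1.40 ± 0.23, SE, adjusted p = 0.0359). OAS2 (2.75, adjusted p = 0.0955) and XAF1 (2.54, adjusted p = 0.137) had larger differences that did not pass. IRF9 (0.71, adjusted p = 0.281) and IFITM1 (0.61, adjusted p = 0.578) had smaller ones that did not pass either. With erlotinib alone these changed by 0.99 and 1.14, neither past the threshold.

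For several genes the difference came from the erlotinib side. TNFAIP3, the NF-kappaB feedback inhibitor A20, was 7.35 and 6.64 at 6 and 12 h of erlotinib and 5.51 and 5.68 at 24 and 48 h, a fall of -1.40 (adjusted p = 0.0444). With quinacrine it was 7.44 to 7.87 early and 8.07, 8.07 and 8.62 late (0.58, adjusted p = 0.0973). The series ran apart, with a difference of 1.98 ± 0.31 (SE, adjusted p = 0.0359). TNFRSF9, the receptor 4-1BB, went from 6.11 and 6.06 to 4.72 and 4.50 with erlotinib and changed by -0.07 with quinacrine. F3, tissue factor, fell by 1.00 with erlotinib (adjusted p = 0.0249) and changed by 0.23 with quinacrine. The call of any difference depended on the setting: 0 genes passed without centring (with the median of all rows, without a filter or with the interquartile range as a term, likewise 0), 6 with loess and 42 without the 6 h arrays. It was 0 with quinacrine 6 h, quinacrine 24 h, combination 12 h or combination 48 h left out, 1 without erlotinib 12 h or 48 h, 3 without combination 24 h, 7 without erlotinib 6 h, and 10 without erlotinib 24 h or quinacrine 12 h.

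The 2 arms with quinacrine were then set side by side. The late minus early change had a Pearson r of 0.64 between quinacrine alone (1 late and 2 early arrays) and the combination (2 and 2) over 5820 genes, with no array in common. The 119 risers had medians of 0.70 and 0.79 and the 79 that fell -0.50 and -0.62. OAS2 changed by 3.40 and 2.88, XAF1 by 2.70 and 3.20, CFB by 1.59 and 2.26, SLC7A11 by -1.60 and -1.91. No gene passed for the difference between the arms (smallest adjusted p = 1, limma; 82 genes at an unadjusted p under 0.05), with a single late quinacrine array; without combination 12 h, 38 did. The combination arm alone reaches 48 h. Without the 48 h arrays, 38 genes passed for late against early with quinacrine (34 up, 4 down) and 22 of the 33 interferon genes were among them.

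**Figure D5:**
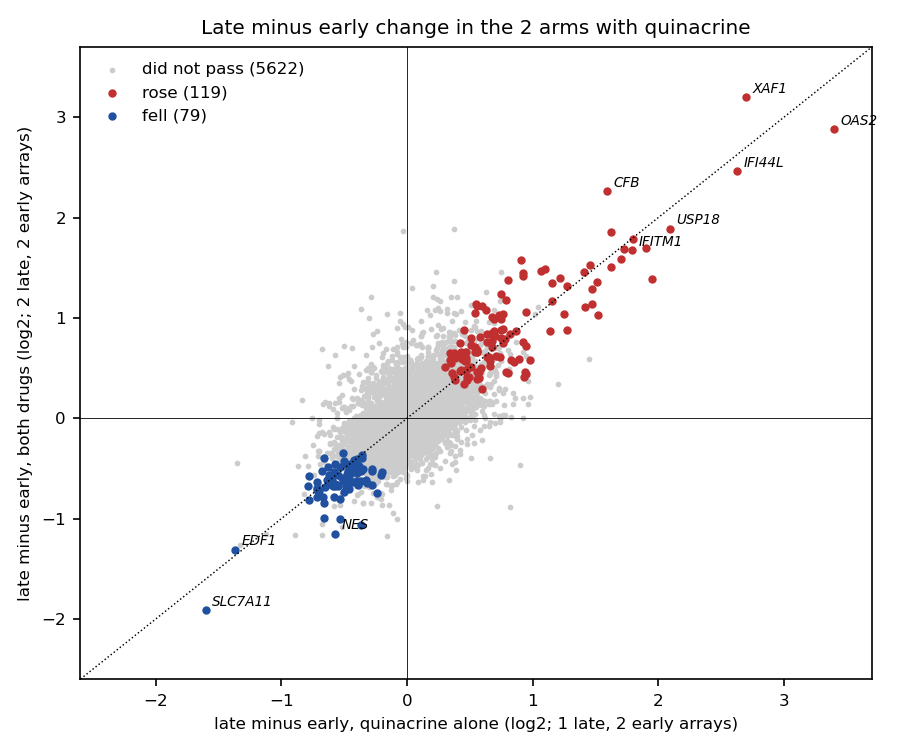
Late minus early log2 change with quinacrine alone (horizontal axis, 1 late and 2 early arrays) against that with both drugs (vertical axis, 2 late and 2 early arrays) for 5820 genes, with the 119 that rose in red, the 79 that fell in blue and the line of equal change dotted. Red and blue points lie in the upper right and lower left quadrants only, a property that their selection favours, with OAS2, XAF1 and IFI44L farthest to the right and SLC7A11 and EDF1 farthest to the left.

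Of the named calls for late against early with quinacrine 9 were kept under every alternative that was read gene by gene and tested the gene. These were the interferon genes XAF1, IFI44L, USP18, HERC6, SAMD9, IRF9, OAS3 and PARP9, and EDF1. The fit over every row was not read gene by gene and is not in these counts. OAS2 lost it under 1 of 29 alternatives and SLC7A11 under 2 of 31. At the other end, MKI67 lost its call under 24 of 31, GTSE1 under 23 of 31, HMGCS1 under 22 of 31, GINS2 under 20 of 31 and LINC00997 under 20 of 30.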

How the data were processed

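Gene expression was measured on 12 arrays (Affymetrix Human Gene 2.1 ST). Per the labels and the submitters' processing notes, the authors made the deposited log2 values with Affymetrix Expression Console 1.30 by RMA, with hg19 annotation. Of 53617 rows, 23871 had 1 symbol, 1842 several (not named) and 27904 none in the platform annotation; 22569 were matched to RefSeq by Entrez ID. The row with the highest mean was used per gene (22395 genes), and 5820 with a mean of at least 5 were tested. Each array was centred on its median over these genes. Precision is limited by the number of arrays, since intensities carry no depth.

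Tests used limma 3.58.1 (R 4.3.3): 1 fit of the 11 treated arrays in 4 groups (early and late, with quinacrine and with erlotinib only), 7 residual degrees of freedom, Benjamini-Hochberg adjustment at 0.05. The difference between arms used 6 groups and 5 residual degrees of freedom. Fits were tested on simulated data. Members, gene lists and tests were chosen with earlier results of these data known, and support nothing independently. Named genes were the 12 largest rises and falls past the threshold without overlap, up to 6 per list or comparison, and a set always named; others are marked or come from tables of calls. CDKN1A lay below the filter. Alternatives covered centring, filter, rows, prior variance, array weights, a minimum change of 1.2-fold, which arrays and times entered, a slope with time and each array left out.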

Additional observations from a re-analysis of the deposited data

Results flagged for a closer look

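Of 88 named genes, 3 had 1 of the 4 early arrays with quinacrine far from the other three, while chance alone sets about 1 group in 20 apart. ANGPTL4 was 6.31 at quinacrine 12 h, above the other early arrays, SQSTM1 was 6.28 at combination 6 h, and NFKB1 was 6.58 at quinacrine 6 h.

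In 11 named genes the late minus early change differed between quinacrine and erlotinib by the interaction term in limma (adjusted p under 0.05). The difference was 1.83 for IFI44L, 1.77 for USP18, 1.77 for HERC6, 1.73 for SAMD9, 1.17 for OAS3, 1.98 for TNFAIP3, 1.40 for TNFRSF9 and 1.58 for GLIPR1. It was -1.16 for UBTD1, -1.62 for CD79A and -1.40 for EDF1. CD79A, a B-cell receptor component, was 7.24 and 7.56 at 6 and 12 h of erlotinib and 8.11 and 8.95 at 24 and 48 h. Of the other leukocyte markers, CD68 (8.57) and CSF1R (6.44) also averaged over 5 on the 12 arrays. The remaining 16, PTPRC (0.89) among them, averaged under 5. UBTD1 was 4.68 and 4.22 at 6 and 12 h of erlotinib against 5.53 and 5.44 later, and 5.28 to 5.69 on all arrays with quinacrine.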

How the results depend on the processing

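For late against early with quinacrine (198 genes), 83 passed with centring on the median of all rows, 102 without a filter, 94 over every row, 327 with a trend in the prior variance, 613 with array weights and 28 against a 1.2-fold threshold. When only the 7 arrays with quinacrine entered the fit 110 passed, without the 48 h arrays 38 and on combination arrays 17. A term for combination gave 91, a slope per doubling of time 920 and the interquartile range as a term 19. Without the 6 h arrays 55 passed. Leaving out 1 array gave 40 to 251. The interferon count of 28 was 14 at a mean of at least 6 (of 17 tested), 13 on combination arrays, 14 with the interquartile range as a term, 9 against combination 12 h alone and 18 with the filter on the untreated array; leaving out 1 array gave 22 to 28.

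For erlotinib (13), 6 passed uncentred, 4 with the median of all rows, 3 without a filter, 5 over every row, 22 with a trend, 4 against 1.2-fold, 0 on the 4 erlotinib arrays alone, 4 without 48 h and 7 with the filter on the untreated array, and leaving out 1 array gave 3 to 52. For the difference from erlotinib (17), 0 passed uncentred, with the median of all rows, without a filter, over every row, against 1.2-fold, on combination arrays, with a term for combination or with the interquartile range as a term. It was 6 with loess, 2 without combination 6 h and erlotinib 12 h, 1 without 48 h, 42 without 6 h and 10 with the filter on the untreated array, and 0 to 22 with 1 array left out. For the difference between arms (0), leaving out 1 array gave 0 to 38; without quinacrine 24 h it could not be fitted. The cause of these shifts was not tested, apart from fewer arrays or genes where an alternative removes them.

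None of the 50 called changes of named genes with quinacrine changed sign under any of their alternatives, 1523 values in all. The alternatives with the interquartile range, without 6 h, against combination 12 h and with the untreated filter were chosen after seeing the data. The labels give no replicate numbers, and no fit paired arrays by time. The arm entered as the term for combination given above. Signal near the array's low end limits the members under the filter.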

Other observations

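Other genes upstream of the interferon targets were also looked up after the values had been seen. Beside IFNL1, whose late arrays with quinacrine lay at 3.29 to 4.42, IFNL2 changed by 0.07, IFNL3 by -0.03, IFNB1 by -0.31 and TLR3 by -0.09. STING1, the adaptor of cytosolic DNA sensing, was 5.20 to 5.64 early and 5.73 to 6.00 late with quinacrine, and 6.29 at 48 h of erlotinib against 5.18 untreated. CGAS changed by -0.19. STING1, CGAS and the RNA-sensing adaptor gene MAVS (-0.04) did not pass for late against early with quinacrine (adjusted p = 0.12, 0.407 and 0.913, limma).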
